A study of Mus musculus with 40 samples.

Results

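Tumors of mice given anti-PD-L1 alone were compared with tumors of mice given its isotype control, 10 against 10, which are 20 of the 40 libraries of the study. EMT-6, a mouse mammary carcinoma cell line, had been grown in the mammary pad of female Balb/C mice, aged 8 to 12 weeks, from an inoculum of 0.1 mL. Dosing began 20 days after inoculation, when tumors averaged about 400 mm3, and every group was dosed intravenously on days 0, 1 and 2 and sampled on day 6. The anti-PD-L1 group received 400 µg of a PD-L1 antibody. A trap control group of 10 received 492 µg of a fusion of the TGF-β trap to a mutated PD-L1 antibody. The isotype control group received 400 µg of an inactive isotype control of anti-PD-L1. Each library is 1 tumor, numbered C0469 to C0478 for anti-PD-L1, C0459 to C0468 for the trap control and C0449 to C0458 for the isotype control. The other 10 libraries of the study, from a fusion of anti-PD-L1 to the trap, took no part in these fits unless stated. All of the tumors come from 1 cell line in 1 mouse strain at 1 time, so the comparison speaks for that model only.

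PD-L1, encoded by Cd274, sits on tumor and immune cells and, by binding PD-1 (Pdcd1) on T cells, dampens their activity. Interferon-γ from activated T cells and NK cells raises Cd274, antigen presentation genes and chemokines such as Cxcl9 that draw T cells. An antibody that blocks PD-L1 can release T cells from this restraint, and granzymes and perforin are then among the effectors that kill tumor cells.

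The libraries fell into 2 sets that the labels do not name. The first set (set 1) is C0449 to C0464, with all of the isotype control and 6 trap control libraries. The second set (set 2) begins at C0465 and holds 4 trap control libraries and all of the anti-PD-L1 group. Neither set holds both of the groups compared, so no difference between them can be had within a set, and in the 20 libraries alone treatment and set cannot be told apart. The sets differ in structural RNA, here 7SL RNA (Rn7s1 and Rn7s2), the RNA core of the signal recognition particle, and the mitochondrial ribosomal RNAs mt-Rnr1 and mt-Rnr2. The share of these 4 genes ran from 11.7% to 17.0% of expected counts in anti-PD-L1 libraries with a median of 14.1%, against 34.2% to 62.0% with a median of 43.3% in isotype control libraries. Within the trap control group it was 12.9% to 17.4% in the 4 libraries of the second set and 29.7% to 62.3% in the 6 of the first. The ranges do not overlap between sets, and within a set the groups overlap. The deposited expected counts of Rn7s1 and Rn7s2 were equal in all 40 libraries. Reads of 7SL therefore cannot be assigned to either copy.

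**Figure D1:**
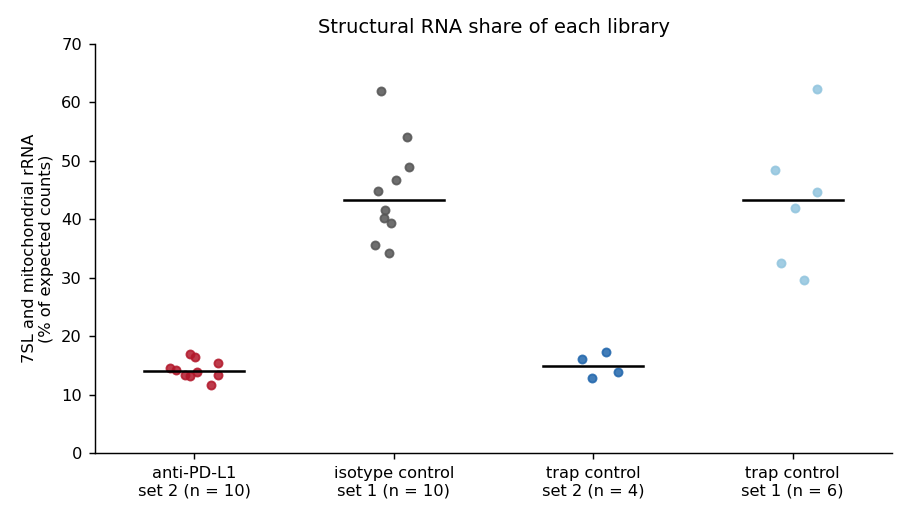
Share of 7SL and mitochondrial ribosomal RNA in each library, in percent of expected counts; points are libraries and lines are medians. The anti-PD-L1 libraries (11.7% to 17.0%) lie beside the 4 trap control libraries of set 2, and the isotype control libraries (34.2% to 62.0%) beside the 6 trap control libraries of set 1.

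Total expected counts ran from 13495835 to 27191617 in the 30 libraries fitted. Protein-coding genes held 71.6% to 79.6% of them in anti-PD-L1 libraries, against 26.9% to 52.0% in isotype control libraries. Raw counts of a gene are therefore not directly comparable between these groups. Mesenchymal and epithelial genes were detected in every library of both groups. Levels are given in CPM, expected counts scaled to the library size after TMM scaling by edgeR, not to the total count. CPM values listed for a group are those of its lowest, median and highest library. Vim, a mesenchymal filament gene, had 2924, 3337 and 3948 CPM in anti-PD-L1 tumors, against 1989, 2626 and 3099 CPM in isotype control tumors. Krt18, an epithelial keratin, had 13.4, 21.3 and 54.9 CPM with anti-PD-L1, against 10.8, 19.1 and 51.5 CPM with the isotype control. Skeletal muscle stood apart in 5 libraries, where the mean log2(CPM + 1) of muscle genes was above 3: anti-PD-L1 C0475 at 5.30, isotype control C0449 at 5.06, and trap controls C0463 at 10.55, C0465 at 5.89 and C0468 at 3.88. In trap control C0467 the fat score was 4.89, the highest of the 30. Several values below are given with and without single libraries.

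Without a set term the 2 groups seemed far apart. Of 14725 genes tested with edgeR's quasi-likelihood test, 9601 (65.2%) were called at an adjusted p under 0.05, with 4806 (32.6%) higher and 4795 (32.6%) lower with anti-PD-L1. Expression did not overlap between the 10 anti-PD-L1 and the 10 isotype control libraries for 3953 genes (26.8%). That even split depends on the scaling: on log2(TPM + 1) 11613 genes were higher and 731 lower, with a median over all genes of 0.60, and on log2(TPM + 0.1) 11643 were higher and 738 lower with a median of 1.01. The trap control group had 1 treatment in both sets, and its sets differed in 7967 genes (54.1%). Its second set differed from its first in the same direction as anti-PD-L1 differed from the isotype control for 9249 of the 9601 called genes (96.3%), compared with 68.6% of the 5124 genes that were not called. Across the 14725 genes, Pearson's r between these 2 differences, which share no library, was 0.87 and Spearman's rho 0.89, a description over genes that are not independent and that all share 1 scaling.

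The quasi-likelihood test called no gene once the set was a term of the fit. The term was estimated from the trap control group, so the adjusted value equals the anti-PD-L1 minus trap control difference in the second set, less the isotype minus trap control difference in the first. With it, edgeR called 0 of 14725 genes (0.0%), and the smallest adjusted p was 0.0707. At an unadjusted p under 0.05 there were 1638 genes (11.1%), 678 higher (4.6%) and 960 lower (6.52%) with anti-PD-L1. That number depends on the processing. It was 1068 with the GC trend removed and 2455 with the structural RNA share in place of the set. By limma it was 414 on log2(TPM + 1) and 357 on log2(TPM + 0.1). DESeq2's Wald test called 8, limma 0 on log2(TPM + 1) and 0 on log2(TPM + 0.1). The fit to all 40 libraries called 2, and the structural RNA share in place of the set called 10. Without the 5 libraries of high muscle score, an alternative added after the data were seen, 9523 genes were called without the term and 0 with it.

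Among the 9601 genes called without the term, the median size of the log2 fold change was 0.62 without it and 0.17 with it. For 6570 of them (68.4%) the value without the term lay outside the 95% interval of the value with it, and 6207 (64.6%) kept their direction. These genes were picked for a pooled difference. Over all genes tested the median size was 0.44 without the term and 0.18 with it, and over the 5124 genes not called without it, 0.15 and 0.21. Fold changes beyond 1 on the log2 scale numbered 2376 genes without the term and 524 with it over all genes tested, and 73 and 314 among those not called. The term widened the error: the median standard error was 0.13 without it and 0.19 with it, and the interval reached a median of 0.27 and 0.40 to either side. Even so, the interval lay within -1 to 1, that is inside a 2-fold change either way, for 11215 genes (76.2%). An adjusted p above the threshold does not show that a gene stayed the same, so the interval is given beside each value below. Values of a gene given as a pair are log2 fold changes without and with the term and the 95% interval with the term stands in parentheses. Since that test called no gene at all with the term, a list without a call is no result of its own. Its median, the sign of its values and the number of intervals within -1 to 1 are given instead. Calls and intervals are to be read against 65.2% of all genes called without the term and 76.2% of intervals within -1 to 1. A count of list genes at an unadjusted p under 0.05 is to be read against 11.1% of all genes.

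**Figure D2:**
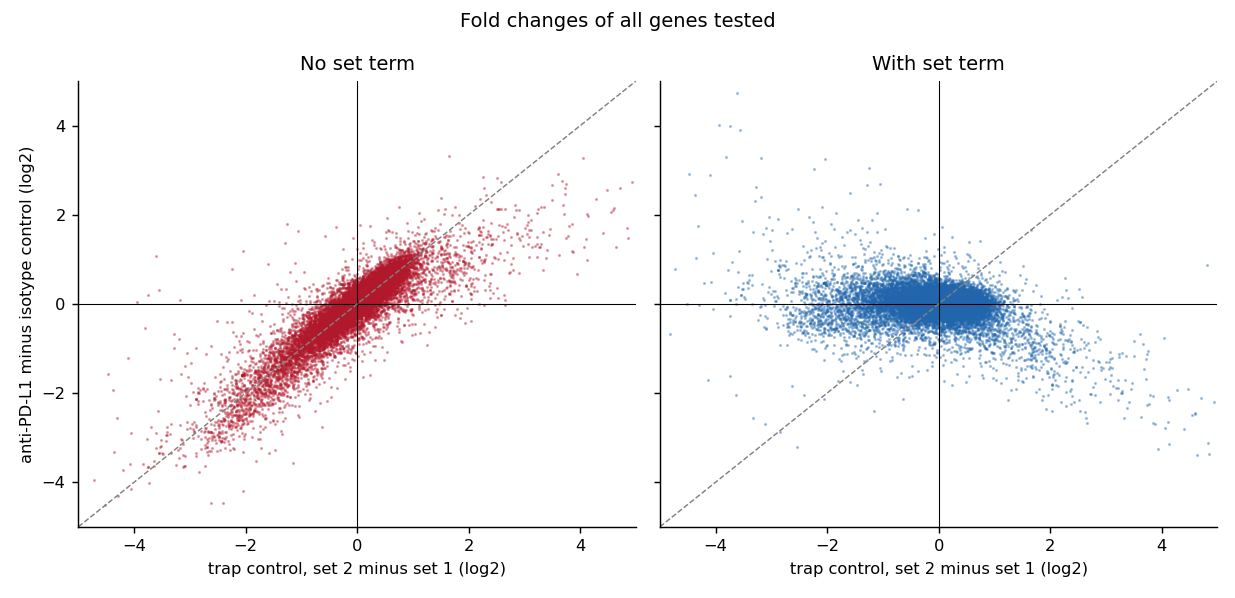
Log2 fold changes of anti-PD-L1 minus isotype control for 14725 genes, without the set term (left) and with it (right), against the difference between sets within the trap control group; the dashed line marks equality. Without the term the points lie along the line (Pearson's r 0.87), and with it no gene was called; 33 genes lie outside the plotted range of 5 on either axis.

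On the count scaling, the PD-1 pathway list had a median near 0 with and without the set term. Its member Cd274, the target of the antibody, lay below 0 in both fits. Cd274 (mm10 chromosome 19, 29367455 to 29388095) had 3.54, 6.50 and 11 CPM in anti-PD-L1 tumors, against 6.01, 9.48 and 13.5 CPM in isotype control tumors. The libraries overlap, and the difference was -0.44 without the term (adjusted p = 0.0816) and -0.45 with it (95% interval -1.24 to 0.34, adjusted p = 0.68). It turned to 0.14 without trap control C0465, where Cd274 was at 22.9 CPM, compared with 6.53 to 15.8 CPM in the trap controls of the first set. Pdcd1, the receptor PD-1, was near its detection limit at 0.0535, 0.340 and 0.575 CPM with anti-PD-L1, against 0.0709, 0.235 and 0.380 CPM with the isotype control, and its value with the term was -0.01 (-1.48 to 1.45), or -0.91 without trap control C0464. Pdcd1lg2, the second ligand of PD-1, did not pass the filter on low counts. It had 2 to 7 expected counts in anti-PD-L1 libraries and 1 to 5 in isotype control libraries, not scaled between groups.

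Of the 14 genes of the PD-1 pathway and its B7 relatives, 11 were tested, 2 were called without the term (18.2% against 65.2% of all genes) and 0 with it. The called pair were Ptpn6, the phosphatase SHP-1 that acts downstream of inhibitory receptors, and Rgmb, a binding partner of PD-L2. Ptpn6 was 0.65 without the term and 0.16 with it (-0.27 to 0.59). Rgmb had 17.8, 28.3 and 35.2 CPM with anti-PD-L1, against 42.1, 51.4 and 59.4 CPM with the isotype control. Its groups do not overlap, yet its value of -0.84 became -0.04 (-0.56 to 0.47). Ptpn11, the related phosphatase SHP-2, was 0.11 with the term (-0.15 to 0.36). With the term 7 of the 11 intervals lay within -1 to 1. The median of the list was -0.01 with the term, compared with 0.0066 over all genes. Without the term it was also -0.01, but 0.30 on log2(TPM + 1), or -0.30 relative to all genes. On that scale 9 genes of the list were called higher and 0 lower without the term.

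Without the term 9 of 17 TGF-β ligand and receptor genes (52.9%) and 11 of 16 response genes (68.8%) were called. Tgfb1 (mm10 chromosome 7, 25687002 to 25705077), the main TGF-β ligand of many tumors, had 9, 12.3 and 14.1 CPM in anti-PD-L1 tumors, against 28.4, 34.6 and 39.3 CPM in isotype control tumors. The groups do not overlap, and the trap controls split the same way, at 10.4 to 21.2 CPM in the second set and 28 to 40 CPM in the first. Its value was -1.54 without the term (adjusted p = 1.34e-07) and -0.28 with it (-0.66 to 0.10, adjusted p = 0.586). Tgfbr2, the receptor that binds the ligand, was 0.63 without and 0.02 with the term (-0.35 to 0.39). Ltbp3, which holds latent TGF-β in the matrix, was -1.27 and -0.02 (-0.52 to 0.47).

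With the term the median of the 17 ligand and receptor genes was 0.01, and 16 of the 17 intervals lay within -1 to 1. Of the 16 response genes, 3 were higher and 8 lower without the term; with it 13 intervals lay within -1 to 1. Their median without the term, -0.28, turned to 0.80 on log2(TPM + 1), or 0.20 relative to all genes; with the term it was -0.11. Ccn2, a matricellular protein induced by TGF-β, had 31.7, 61.1 and 80.4 CPM with anti-PD-L1, against 134, 174 and 247 CPM with the isotype control, without overlap; it was -1.65 without the term and 0.10 with it (-0.55 to 0.76). Smad7, the inhibitory SMAD, was -0.79 and -0.24 (-0.68 to 0.20), and Pmepa1, another feedback inhibitor, was -1.09 and -0.11 (-0.52 to 0.30). Thbs1, which activates latent TGF-β, was -0.64 without the term and -0.16 with it (-0.64 to 0.32); its value without the term turned positive on both TPM scales.

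**Figure D3:**
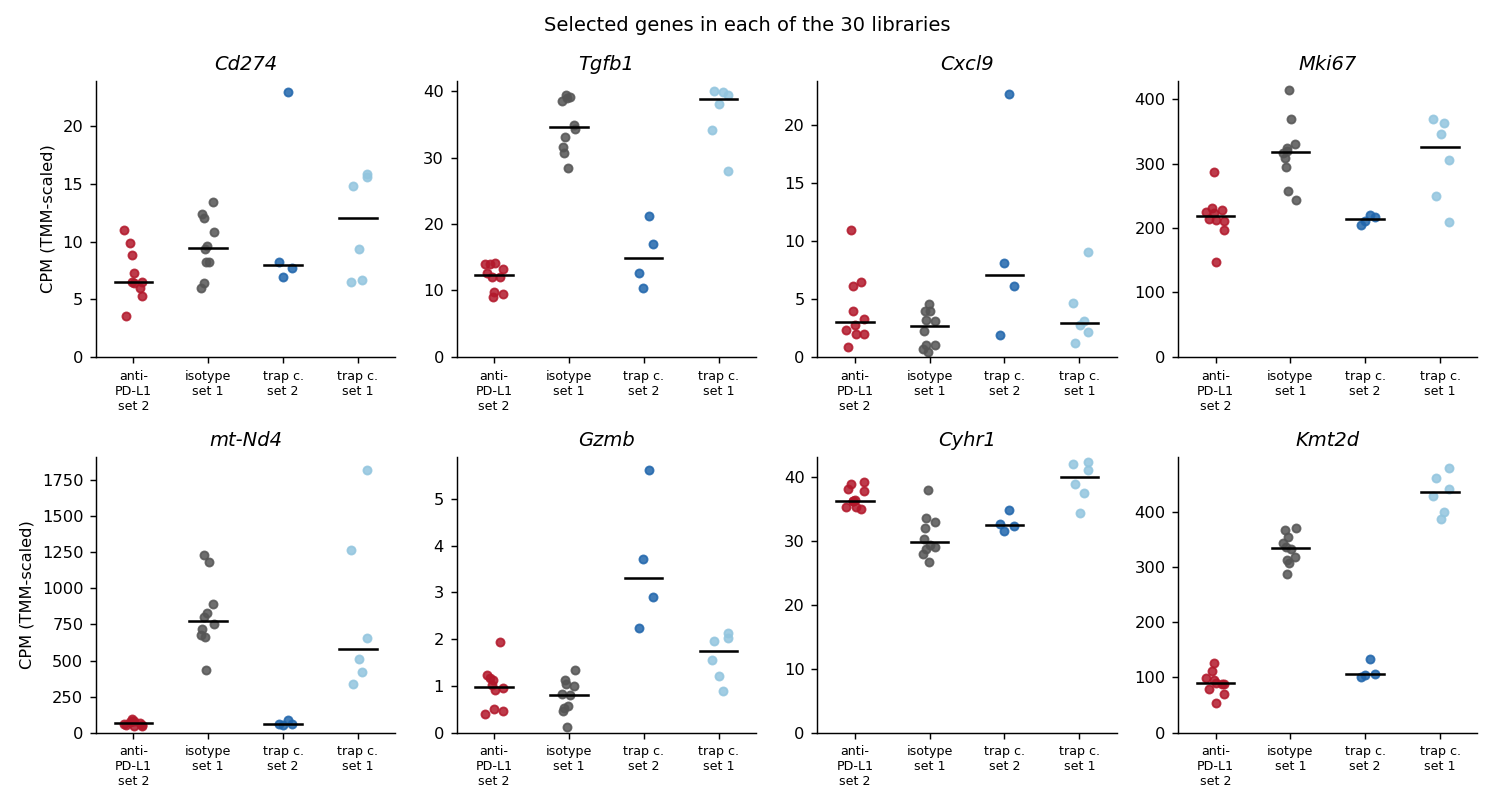
CPM of 8 genes in each of the 30 libraries, on axes that start at 0; points are libraries and lines are medians. For Tgfb1 and mt-Nd4 each treatment overlaps the trap controls of its own set and not those of the other, and Kmt2d is low in set 2 and high in set 1, while Gzmb is highest in the set 2 trap controls (2.24 to 5.62 CPM).

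Lymphocyte genes were low and their intervals wide. In bulk RNA, fewer cells of a type and less RNA per cell cannot be told apart. Of 19 T cell genes only 9 passed the filter. It kept out Cd3e at 1 to 16 expected counts in anti-PD-L1 libraries and 0 to 9 in isotype control libraries. Cd3d was left out too, at 2 to 9 counts in anti-PD-L1 and 0 to 6 in isotype control libraries. Raw counts like these are not scaled between groups. Among those tested, 3 (33.3%) were called without the term; with it 8 of 9 values lay below 0 and 1 interval lay within -1 to 1. Cd8a, the coreceptor of cytotoxic T cells, had 0.110, 0.407 and 0.655 CPM with anti-PD-L1, against 0.0546, 0.355 and 1.32 CPM with the isotype control. The groups overlap, and the interval with the term ran from -1.78 to 1.32 around -0.23, which was 0.72 without trap control C0465 and -0.79 without C0464. Lck, the kinase of the T cell receptor, was 0.78 without the term and 0.10 with it (-0.33 to 0.53). Thy1, shared by T cells and fibroblasts, was 0.84 and -0.62 (-1.66 to 0.42).

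With the term 9 of the 10 values of cytotoxic genes tested lay below 0. Of 15 cytotoxic genes 10 were tested, with 1 called without the term and 0 intervals within -1 to 1 with it. Gzmb, granzyme B, had 0.395, 0.985 and 1.93 CPM in anti-PD-L1 tumors, against 0.112, 0.810 and 1.35 CPM in isotype control tumors, and the libraries overlap. The trap controls had 2.24 to 5.62 CPM in the second set and 0.889 to 2.13 CPM in the first. Its value was 0.32 without the term and -0.86 with it (-1.86 to 0.14, adjusted p = 0.522), or -0.57 without C0465. Within the second set Gzmb was -1.89 in anti-PD-L1 relative to trap control tumors (adjusted p = 0.0386), and within the first set it was -1.03 in isotype control relative to trap control tumors (adjusted p = 0.0489). Without the 5 libraries of high muscle score, 0 genes were called in the comparison within the second set.

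Prf1, perforin, which opens the path for granzymes, had 0.278, 0.954 and 2.40 CPM with anti-PD-L1, against 0.112, 1.14 and 1.69 CPM with the isotype control, and was -1.04 with the term (-2.29 to 0.20), or -0.68 without C0465. Gzma, granzyme A, was 1.58 without the term and -1.28 with it (-2.89 to 0.34). Its trap controls had 0.910 to 4.11 CPM in the second set and 0.0976 to 0.709 CPM in the first. Gzmc, a granzyme of activated killer cells, was -0.12 (-1.34 to 1.1). Klrk1, the NK receptor NKG2D, was 0.77 and -0.39 (-1.37 to 0.59), or -0.17 without C0465 and -0.71 without C0464. Ifng did not pass the filter. It had 0 to 6 counts in anti-PD-L1 and 0 to 1 in isotype control libraries, not scaled between groups. The median of the cytotoxic list was 0.24 without the term and -0.75 with it, and between -1.14 (without anti-PD-L1 C0475) and -0.44 (without trap control C0465) when 1 library was left out. The T cell median was 0.22 without the term, -0.55 with it, and -0.30 with it but without C0465.

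Both interferon lists leaned below 0 with the term, and the sign of their medians rested on trap control C0465. Cxcl9, a chemokine induced by interferon-γ, had 0.884, 2.99 and 10.9 CPM with anti-PD-L1, against 0.447, 2.67 and 4.56 CPM with the isotype control. The groups overlap; it was 0.75 without the term (adjusted p = 0.17) and -0.61 with it (-2.19 to 0.97, adjusted p = 0.787), and 0.25 without C0465.

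Of 23 interferon-γ response genes 22 were tested; 10 (45.5%) were called without the term, 9 higher and 1 lower, and with it 17 of 22 values lay below 0 and 14 intervals within -1 to 1. Gbp2, an interferon-induced GTPase, was 0.90 without the term and 0.29 with it (-0.19 to 0.77), and Irf1, an interferon-induced transcription factor, 0.45 and 0.19 (-0.12 to 0.51). Both lie above 0 with the term, unlike most of the list, and Gbp2 has its highest value. The list median was 0.35 without the term, -0.24 with it, and 0.14 with it but without C0465; without the 5 libraries of high muscle score it was 0.28. Among 24 type I interferon response genes, 7 (29.2%) were called without the term, 3 higher and 4 lower. With it 19 of 24 values lay below 0, 17 intervals lay within -1 to 1, and the median was -0.18, or 0.03 without C0465. Isg15, a ubiquitin-like protein, had 4.23, 10.1 and 13.9 CPM with anti-PD-L1, against 14.1, 20.4 and 26.8 CPM with the isotype control, without overlap. Its value of -0.99 became -0.05 with the term (-0.65 to 0.56). Oas1a, a sensor of double-stranded RNA, was 0.72 and 0.04 (-0.40 to 0.47), and Bst2, tetherin, -0.79 and -0.16 (-0.76 to 0.44).

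On the count scaling, MHC class I presentation had a small median with and without the term. All 14 genes were tested, 10 (71.4%) were called without the term, and with it 13 of 14 values lay above 0 and all 14 intervals within -1 to 1. The median was 0.26 without the term, where values ran from -0.73 to 0.96, and 0.19 with it (0.12 without trap control C0467). On log2(TPM + 1) the median without the term was 1.26, or 0.66 relative to all genes, with 13 called higher and 0 lower. With the term 3 genes, all higher, reached an unadjusted p under 0.05. B2m, the light chain of class I, had 543, 734 and 862 CPM with anti-PD-L1, against 380.0, 435 and 635 CPM with the isotype control, and was 0.59 without the term and 0.03 with it (-0.39 to 0.44). The heavy chains H2-K1 and H2-D1 were 0.18 (-0.11 to 0.48) and 0.19 (-0.11 to 0.50) with the term. Reads of such near-identical class I genes may be shared between them, so their single values are uncertain. The immunoproteasome subunits Psmb8 and Psmb10 were at 0.27 (0.03 to 0.50, unadjusted p = 0.0288, adjusted p = 0.402) and 0.44 (0.07 to 0.81, unadjusted p = 0.0223, adjusted p = 0.393). The MHC class II list was less settled: 7 of 8 tested genes (87.5%) were higher without the term, 1 interval with it lay within -1 to 1, and its median of 0.44 with the term turned to -0.40 without trap control C0464. H2-Ab1, a class II chain, had 13.9, 19.2 and 31.6 CPM with anti-PD-L1, against 6.15, 8.28 and 10.5 CPM with the isotype control, without overlap, and was 0.54 with the term (-0.46 to 1.55), or -0.41 without C0464. Cd74, the invariant chain, was 0.49 (-0.59 to 1.57), or -0.43 without C0464.

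Macrophage genes leaned above 0 with the term and myeloid chemokines below it, with wide intervals for the chemokines. All 18 macrophage genes were tested; 13 were higher and 1 lower without the term (77.8% called), and with it 16 values lay above 0 and 16 intervals within -1 to 1, around a median of 0.18, or 0.07 without C0466. Fcgr1, a high-affinity antibody receptor, had 16.2, 25.6 and 35.3 CPM with anti-PD-L1, against 6.59, 11.2 and 15.2 CPM with the isotype control. These groups do not overlap, yet 1.05 became 0.08 with the term (-0.50 to 0.67). C1qa, a complement component made by macrophages, was 0.99 and 0.37 (-0.23 to 0.96); Lyz2, lysozyme, 0.53 and 0.10 (-0.36 to 0.56); and Apoe 0.58 and 0.10 (-0.52 to 0.72). Of 16 myeloid chemokine and growth factor genes tested, 7 (43.8%) were higher without the term. With it 10 of 16 values lay below 0, 4 intervals lay within -1 to 1, and the median was -0.41, or -0.16 without trap control C0466, against 0.55 without the term. The chemokines named here lie above 0, unlike most of the list. Ccl2, which attracts monocytes, had 24.9, 34.8 and 55.8 CPM with anti-PD-L1, against 6.80, 14.8 and 35 CPM with the isotype control, and was 1.13 and 0.04 (-0.67 to 0.75). The related Ccl7 was 0.13 (-0.67 to 0.93) and Ccl12 0.41 (-0.34 to 1.16) with the term. An unadjusted p under 0.05 with the term was reached by Ptgs2, the cyclooxygenase of inflammation, at -0.82 (-1.50 to -0.14, adjusted p = 0.391), or -0.40 without trap control C0466, while Nfkbiz, an NF-κB regulator, was -1.37 without and -0.18 with the term (-0.74 to 0.38).

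Matrix genes leaned below 0 with the term and endothelial genes above it, with wide intervals. Of 34 collagen and matrix genes, all tested, 13 (38.2%) were called without the term, 9 higher and 4 lower. With it 22 values lay below 0 and 15 intervals within -1 to 1, around a median of -0.16, or -0.06 without trap control C0463. The lowest value was -2.07, and 3 of the 34 genes, all lower, reached an unadjusted p under 0.05, beside 11.1% of all genes. Col1a1, a chain of fibrillar collagen I, had 441, 1333 and 1954 CPM with anti-PD-L1, against 836, 1918 and 3257 CPM with the isotype control. The groups overlap, and it was -0.62 without the term (adjusted p = 0.0241) and -0.13 with it (-0.96 to 0.69, adjusted p = 0.923). Col1a2, the partner chain, was 0.27 (-0.22 to 0.76), and Fn1, fibronectin, whose groups do not overlap, was -1.04 without the term and 0.17 with it (-0.37 to 0.71). Col1a2 and Fn1 lie above 0 with the term, unlike most of the list. Acta2, smooth muscle actin, was 0.76 and 0.33 (-0.13 to 0.79). Of 13 endothelial genes, all tested, 3 (23.1%) were called without the term; with it 11 values lay above 0 and 2 intervals within -1 to 1, and the median was 0.45, or 0.27 without trap control C0464, against 0.28 without the term. Of the genes of vessels and their walls named here, these reached an unadjusted p under 0.05 with the term: Flt1, a VEGF receptor, at 0.68 (0.25 to 1.12, adjusted p = 0.318), Vwf, von Willebrand factor, at -0.68 (-1.36 to -0.00079, adjusted p = 0.449), and Cspg4, the pericyte antigen NG2, at -0.75 (-1.33 to -0.17, adjusted p = 0.371). Vwf is among the 2 endothelial genes below 0, and was -0.18 without trap control C0467. Pecam1, an endothelial adhesion molecule, was 0.61 and 0.50 (-0.16 to 1.16), or 0.31 without C0464.

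**Figure D4:**
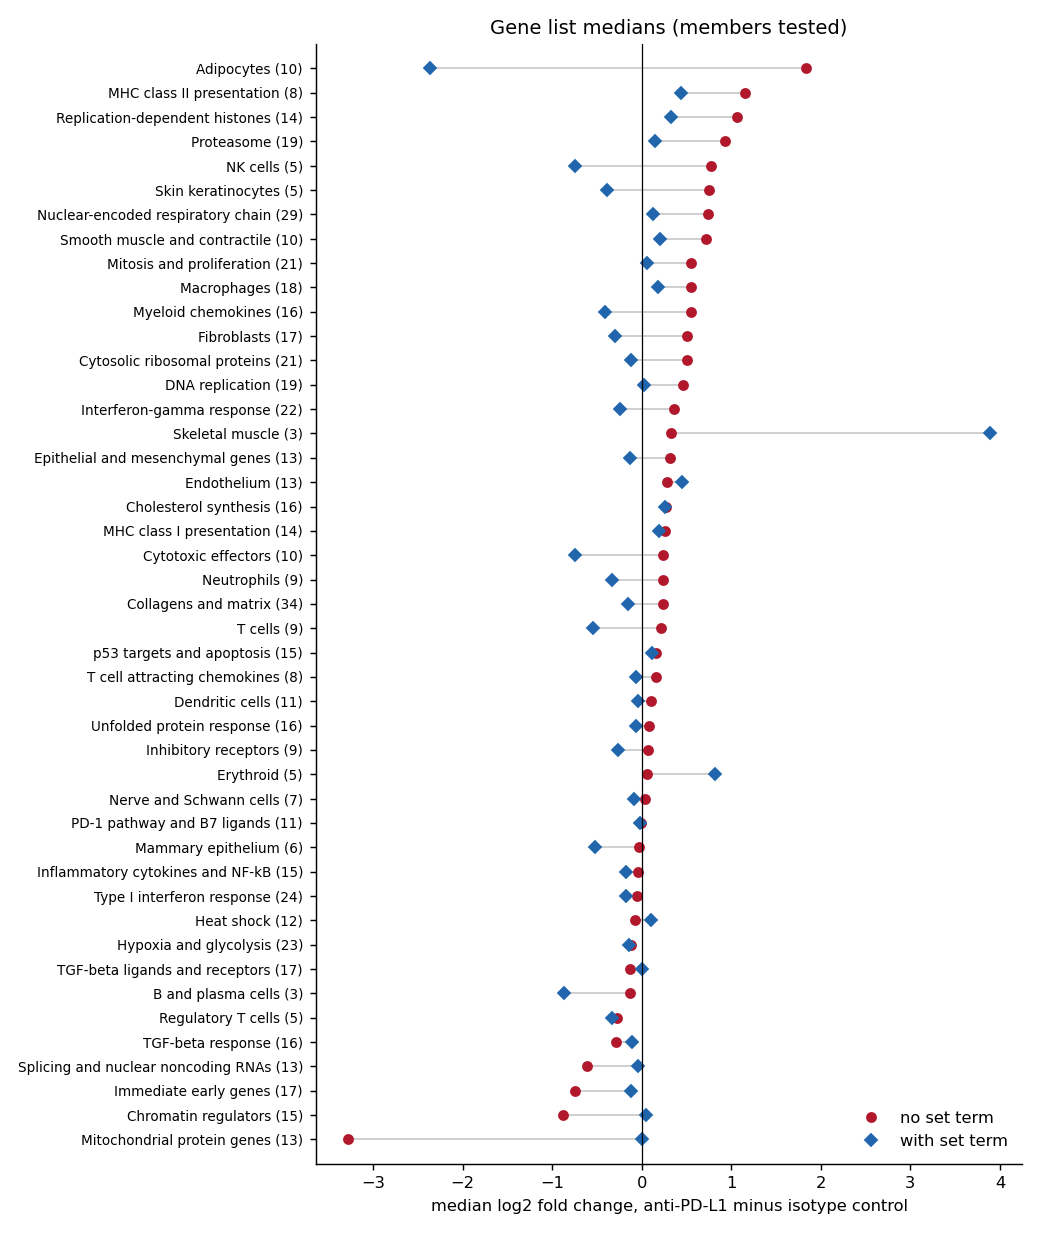
Median log2 fold change of anti-PD-L1 minus isotype control over the tested members of 45 gene lists, without the set term (circles) and with it (diamonds); the number tested stands beside each name. The median was beyond 0.5 in size for 17 lists without the term and for 8 with it, and the mitochondrial protein genes had -3.28 without it and 0.0012 with it.

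Growth genes lost most of their difference with the term. All 21 mitosis genes were tested; 17 were higher and 3 lower without the term (95.2% called), and with it 21 of 21 intervals lay within -1 to 1. Mki67, a marker of cycling cells, had 148, 218 and 287 CPM with anti-PD-L1, against 243, 318 and 415 CPM with the isotype control. Its value of -0.55 without the term, opposite in sign to most of the list, turned to 0.58 on log2(TPM + 1). With the term Mki67 was -0.02 (-0.40 to 0.35). Top2a, which untangles chromosomes, was 0.62 and 0.02 (-0.33 to 0.37). Cdc20, an activator of the anaphase complex, had 94, 102 and 121 CPM with anti-PD-L1, against 35.7, 48 and 64.6 CPM with the isotype control, without overlap. It was 1.08 without the term and 0.21 with it (-0.17 to 0.59), and the checkpoint kinase Bub1b was 0.92 and 0.20 (-0.11 to 0.51). The median of the list was 0.55 without the term and 0.06 with it.

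Of 19 DNA replication genes 15 (78.9%) were called without the term, and with it all 19 intervals lay within -1 to 1 around a median of 0.03. Pcna, the sliding clamp of polymerases, was 0.85 and 0.05 (-0.28 to 0.37); Mcm7, of the replicative helicase, 0.81 and 0.03 (-0.26 to 0.31); and Fen1, a flap nuclease, 1.17 and 0.23 (-0.21 to 0.67). Of 14 replication-dependent histone genes, 13 (92.9%) were higher without the term, and all 14 values with the term were above 0 with intervals within -1 to 1. Hist1h2bc was 1.03 and 0.36 (0.07 to 0.66, adjusted p = 0.391) and Hist2h2ac 1.37 and 0.42 (-0.07 to 0.90). Histone genes have near-identical copies, so reads may be split between them. Their median was 1.06 without the term and 0.32 with it.

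The mitochondrial genome gave the largest list median without the term, -3.28. All 13 protein genes of the mitochondrial genome were lower with anti-PD-L1 without the term, also on both TPM scales. With it 7 of 13 intervals lay within -1 to 1, and the median of 0.0012 was -0.39 without trap control C0459, -0.32 on log2(TPM + 1) and 0.26 with the GC trend removed. mt-Nd4, a subunit of complex I, had 47.8, 64.4 and 92.1 CPM with anti-PD-L1, against 432, 777 and 1233 CPM with the isotype control. The trap controls had 56.2 to 86.7 CPM in the second set and 335 to 1824 CPM in the first, so the sets do not overlap and the treatments within a set do. Its value was -3.64 without the term and 0.0012 with it (-0.81 to 0.81). The ATP synthase subunit mt-Atp6 was -3.41 and -0.32 (-1.11 to 0.47), and the oxidase subunits mt-Co1 and mt-Co3 were -2.29 and -2.27 without the term, -0.21 (-0.99 to 0.57) and -0.18 (-1.0 to 0.63) with it. Nuclear genes of the respiratory chain went the other way: 27 of 29 were higher without the term, and with it 22 values lay above 0 and 28 intervals within -1 to 1, around a median of 0.12. Atp5b, of ATP synthase, had 843 to 1039 CPM with anti-PD-L1, against 393 to 566 CPM with the isotype control, without overlap, and was 0.97 and 0.12 (-0.15 to 0.39). Cox5b, of complex IV, was 1.14 and 0.30 (-0.0017 to 0.60).

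Proteasome and chromatin genes had small medians with the term, and the ribosomal median turned in sign. Of 19 proteasome genes 18 were higher without the term, and with it 14 values lay above 0 and 19 intervals lay within -1 to 1, with medians of 0.93 and 0.15. Psmb7, a catalytic subunit, was 1.16 and 0.19 (-0.08 to 0.45), and Psmc4, an ATPase of the cap, 1.04 and 0.33 (0.03 to 0.64, adjusted p = 0.411). Of 21 cytosolic ribosomal protein genes tested, 15 were higher without the term. With it 3 of the 21, all lower, reached an unadjusted p under 0.05 (11.1% of all genes did), and 20 of 21 values lay below 0. Their medians were 0.50 and -0.12, the second at 0.0009 without trap control C0466, 20 intervals lay within -1 to 1, and Rpl8 was 0.91 and -0.11 (-0.41 to 0.20). Without the term 12 of 15 chromatin regulators were lower and 1 higher, although their median of -0.87 turned to 0.23 on log2(TPM + 1), or -0.37 relative to all genes. With the term their median was 0.04 and 15 intervals lay within -1 to 1. Kmt2d, a histone methyltransferase, had 53.5, 89.5 and 126 CPM with anti-PD-L1, against 287, 334 and 371 CPM with the isotype control. Those groups do not overlap, and -1.89 became 0.07 with the term (-0.28 to 0.43). The nuclear noncoding RNAs Malat1 and Neat1 were -2.20 and -2.86 without the term, and -0.34 (-0.93 to 0.25) and -0.12 (-0.82 to 0.57) with it.

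Of 17 immediate early genes 12 (70.6%) were lower without the term, and with it 12 intervals lay within -1 to 1; their median of -0.74 turned to 0.37 on log2(TPM + 1), or -0.23 relative to all genes, and was -0.12 with the term. Egr1, induced within minutes of many stimuli, had 12.7, 24.3 and 33.7 CPM with anti-PD-L1, against 45.6, 88.7 and 117 CPM with the isotype control, without overlap, and was -0.25 with the term (-0.95 to 0.45). Myc was -1.62 and -0.28 (-0.70 to 0.15). Of 23 hypoxia and glycolysis genes 16 (69.6%) were called without the term, 6 higher and 10 lower. On log2(TPM + 1) 18 were higher and 0 lower without the term, with a median of 0.75, or 0.15 relative to all genes. With the term 20 of 23 values lay below 0 and 17 intervals lay within -1 to 1. An unadjusted p under 0.05 was reached by 3 of the 23 genes, all lower, beside 11.1% of all genes. The list median was -0.13 without the term and -0.14 with it, or 0.02 without trap control C0466. Pkm, pyruvate kinase, was 0.69 and 0.10 (-0.19 to 0.39), and Pfkfb3, a regulator of glycolysis, -1.34 and -0.01 (-0.58 to 0.56). Ero1l, an oxidase of the endoplasmic reticulum that hypoxia induces, had 114, 175 and 244 CPM with anti-PD-L1, against 226, 331 and 496 CPM with the isotype control, and its value of -0.93 without the term was -0.87 with it (-1.44 to -0.29, unadjusted p = 0.00443, adjusted p = 0.324). Without trap control C0466 it was -0.51.

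**Figure D5:**
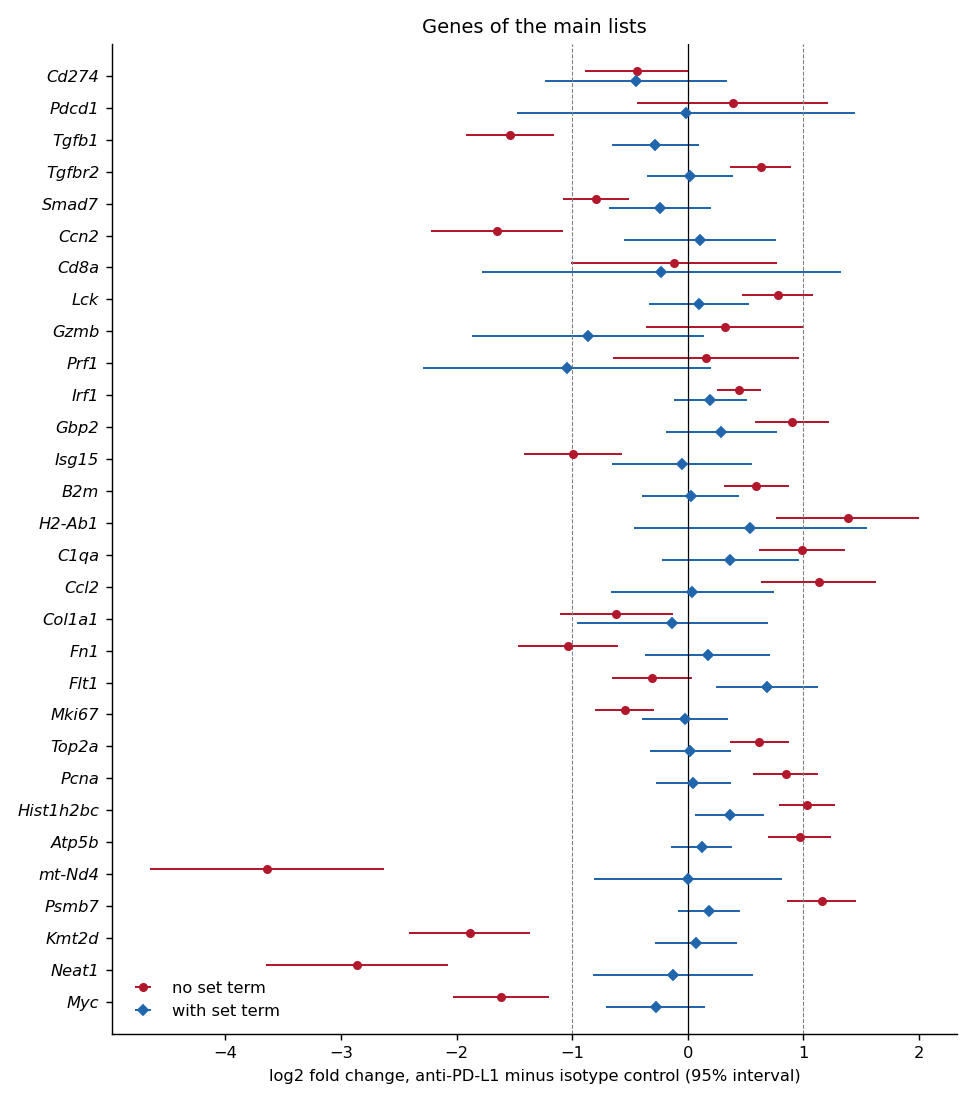
Log2 fold change of anti-PD-L1 minus isotype control with its 95% interval for 30 genes, without the set term (circles) and with it (diamonds); dashed lines mark a 2-fold change. With the term the growth, class I and proteasome genes lie within the dashed lines. Cd274, Pdcd1, Cd8a, Gzmb, Prf1, H2-Ab1 and Flt1 have intervals that pass them.

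By the naming rule, the 8 largest falls without the term were Xkrx at -4.46, Klk14, a kallikrein protease, at -3.96, and 6 protein genes of the mitochondrial genome. The 8 largest rises were Car3 at 3.32 and Cidec at 3.03, both abundant in fat, the mast cell proteases Cma1 at 2.84 and Mcpt4 at 2.73, the lectins Cd209g at 2.77 and Cd209f at 2.70, the urinary protein Mup10 at 2.82, and Dpt, dermatopontin of the matrix, at 2.66. With the term Xkrx was -1.83 (-4.56 to 0.90; -0.52 without isotype control C0449), Klk14 0.78 (-0.82 to 2.37), Car3 1.66 (-1.29 to 4.62; -3.55 without trap control C0463) and Cidec -2.24 (-4.53 to 0.05; -0.55 without trap control C0467). Mup10 was -4.46 (-7.52 to -1.40, adjusted p = 0.324), opposite to its sign without the term, and -2.58 without C0467. The 10 adipocyte genes had a median of 1.83 without the term and -2.37 with it, which was -0.47 without trap control C0467; in the fat list 6 genes reached an unadjusted p under 0.05 and 0 were called. Lpl, lipoprotein lipase, which macrophages also make, was -1.08 and -1.31 (-2.21 to -0.41), or -0.38 without C0467. The 3 tested skeletal muscle genes had a median of 3.89 with the term and -4.59 without trap control C0463, the library of the highest muscle score; in the trap controls of the first set Ttn, titin, ran 2.72 to 7747 CPM. The part of these tissues in other results was not tested beyond leaving those libraries out or adding the tissue scores to the fit, under which 0 genes were called.

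The adjusted value is the difference of 2 comparisons made within sets, 10 against 4 tumors in the second and 10 against 6 in the first. Anti-PD-L1 differed from the trap control within the second set in 2 genes (0.0136%), both lower with anti-PD-L1: Gzmb, given above, and the predicted gene Gm26584. The isotype control differed from the trap control within the first set in 1627 genes (11%), 917 higher (6.23%) and 710 lower (4.82%) with the isotype control. The contrast between these counts depends on the scaling: on log2(TPM + 1) they were 8 and 7, and on log2(TPM + 0.1) 2 and 6. In that comparison within the first set the difference fell with the GC content of a gene's longest transcript: in 5 equal bins of 14513 genes from low to high GC, the median was 0.24, 0.07, -0.03, -0.12 and -0.21. For the adjusted value the medians of the same bins were -0.188, -0.055, 0.024, 0.092 and 0.158, and the list medians above are to be read beside them. Spearman's rho with GC was -0.57 in the first-set comparison, -0.22 for anti-PD-L1 minus trap control in the second set and 0.41 for the adjusted value, as descriptions across genes within 1 set of libraries. When a smooth trend with GC was removed from every library, the first-set comparison called 125 genes and the adjusted comparison 0.

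The genes nearest to a call with the term were chosen after their values were seen. Cyhr1 had 35.1, 36.3 and 39.3 CPM with anti-PD-L1, against 26.7, 29.8 and 38 CPM with the isotype control. The groups overlap, and the trap controls were at 31.6 to 34.8 CPM in the second set and 34.4 to 42.4 CPM in the first. Its value was 0.26 without the term and 0.52 with it (0.32 to 0.71, adjusted p = 0.0707), and 10 of 10 anti-PD-L1 libraries lay above the isotype control median. Rpia, ribose-5-phosphate isomerase of the pentose phosphate pathway, had 13.5, 15 and 16.6 CPM with anti-PD-L1, against 27.7, 34 and 38.5 CPM with the isotype control, without overlap. It was -1.15 and -0.51 (-0.73 to -0.29, adjusted p = 0.121), and on both TPM scales its value without the term turned positive. The predicted gene Gm17711 was -1.83 (-2.54 to -1.11, adjusted p = 0.0707). Hist2h3c1, a histone H3 copy, had 0, 0 and 0.0912 CPM with anti-PD-L1, against 0, 0.817 and 1.57 CPM with the isotype control, and the same adjusted p; its reads may be split with identical copies. None of these genes passed edgeR's threshold in the fit to 30 libraries, but DESeq2's Wald test on the same libraries called Cyhr1 (adjusted p = 0.00132), Gm17711 (adjusted p = 0.00321), Rpia (adjusted p = 0.0196) and Hist2h3c1 (adjusted p = 0.0196).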

How the data were processed

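Bulk RNA-seq was made from snap-frozen EMT-6 tumors, 1 per library, as total RNA with ribosomal depletion and random priming, per the labels' protocols. The deposited tables hold expected counts and TPM of 39012 genes in 40 libraries. Per the submitters' processing notes the authors used RSEM 1.2.31 and Bowtie2 2.3.1 with mm10; the annotation release and strand setting are not given in the sources used here. As deposited, 14.0% of the expected counts were not whole, and they were rounded. TPM values, made by the authors as levels scaled for gene length and depth, served in alternatives only. IDs were matched to GENCODE M21 (37607 IDs, 96.4%).

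Genes were filtered with edgeR 4.0.16 (filterByExpr), scaled by TMM and tested by its quasi-likelihood F test with Benjamini-Hochberg adjustment at 0.05, on the 30 anti-PD-L1, trap control and isotype control libraries with group means and the library set. The fit without the set term used the same libraries. Log2 fold changes are anti-PD-L1 minus isotype control; the standard error is the fold change over the root of F, and the 95% interval uses its t distribution. Adding the set term takes the set difference to be the same in every treatment, which the data cannot check. No library pair within a group agreed within sampling noise. Named genes were the 8 largest rises and falls of called genes at a mean of at least 1 CPM, leaving out predicted and small RNA genes, up to 3 called and the 2 most abundant members of each list, and a short list of immune and growth genes; the genes nearest to a call with the term were chosen after their values were seen. The members, the set and the gene lists were chosen with earlier results of these data known. Alternatives were other scalings and filters, DESeq2 1.42.0, limma 3.58.1 on log2(TPM + 1) and log2(TPM + 0.1), covariates, and each library left out. Some items are not reported here. The scripts were tested on simulated data. Depth limits genes with few counts, and p-values measure the spread between tumors.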

Additional observations from a re-analysis of the deposited data

Results flagged for a closer look

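Of 196 groups of 10 libraries examined over the named genes and sample scores, 18 held a library far from the other 9, on the log2(CPM + 1) scale; chance gives about 1 in 20. No cause was tested.

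In the anti-PD-L1 group the skeletal muscle score was 5.304 in C0475 and at most 0.954 in the others, and Ttn was 6.915 in the same library. Bub1b, the mitotic checkpoint kinase, was low there at 6.096. In C0478 the endothelial gene Pecam1 was high at 6.589 and the lectin Cd209g high at 3.476. In C0469 Smad7 was low at 5.195 and the proteasome gene Psmb7 high at 7.111. Ptpn6 was low in C0471 at 4.48, and the interferon-induced Isg15 was low in C0470 at 2.386.

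In the isotype control group the skeletal muscle score was 5.063 in C0449 and at most 2.371 in the others, with Ttn at 7.999 and Xkrx at 4.583 in that library. Isotype control C0452 was low in Fcgr1 at 2.924, in the chemokine Ccl12 at 1.315 and in Col1a1 at 9.709. Cd8a was high in C0450 at 1.211, Pecam1 high in C0455 at 5.914 and Klk14 high in C0458 at 3.228.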

How the results depend on the processing

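With the set term, 0 genes were called under DESeq2 size factors, robust estimation, a minimum mean of 1 CPM, no filter, structural RNAs left out, set and structural share together, tissue scores as covariates, limma on both TPM scales, GC trend removed, and without the 5 libraries of high muscle score. All 40 libraries gave 2 calls, DESeq2's Wald test 8 and the structural share in place of the set 10; leaving out 1 library gave 0 to 4, with 3 without isotype control C0456, 3 without trap control C0461, 1 without trap control C0468 and 4 without anti-PD-L1 C0469. Genes called both without and with the term numbered 0, but 2 with all 40 libraries, 8 by DESeq2 and 0 to 4 on leaving out 1 library. No list held a call with the term under any setting run.

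Anti-PD-L1 against trap control gave 2 calls, but 0 with no filter, 1 at a mean of 1 CPM, 1 with all 40 libraries, 0 with set and share, 0 with tissue scores, 4 by DESeq2, 8 on log2(TPM + 1), 0 without the 5 libraries, and 0 to 2 on leaving out 1 library. Isotype against trap control gave 1627 calls, but 7 on log2(TPM + 1), 6 on log2(TPM + 0.1), 125 with the GC trend removed and 1007 to 2002 on leaving out 1 library (1007 without trap control C0459). The trap control sets differed in 7967 genes, 3012 with set and share and 4823 with tissue scores. Without the term, on log2(TPM + 1) and log2(TPM + 0.1), Mki67 turned to 0.58 and 0.65, Rpia to 0.47 and 0.64, and Thbs1 to 0.55 and 0.56. The cause was not tested.

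With the term, the median of 19 of 45 lists and the value of 32 of 95 named genes changed sign when 1 library was left out, and for 43 lists the lowest or highest value came without a trap control library. The bridge of 4 and 6 trap control tumors thus limits every adjusted value, and an interval is wide where counts are few. No paired analysis was possible because the labels give the groups no shared replicate numbers.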
